A study of Rattus norvegicus with 12 samples.

Results

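The genes described here encode 8 neuronal inward rectifier potassium channel subunits, taken by symbol from the 17337 genes counted in rat striatum: Kcnj2, Kcnj4 and Kcnj12 (the Kir2 channels Kir2.1, Kir2.3 and Kir2.2), Kcnj3, Kcnj5, Kcnj6 and Kcnj9 (the G protein-gated channels GIRK1, GIRK4, GIRK2 and GIRK3) and Kcnj11 (Kir6.2, the pore of ATP-sensitive potassium channels). All 8 symbols had a row in all 12 libraries. The set was chosen by a list of symbols drawn up with earlier results of these data known, and was selected on the Kcnj6 counts, which differed past the threshold wherever the 24-h abstinence group was compared. Kcnj6 values in those comparisons are therefore a description and carry no test.

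Each library was the poly-A RNA of the whole striatum of 1 wild-type adult male Sprague-Dawley rat, and there were 3 groups of 4 rats. The labels give 16 days of methamphetamine (MA) self-administration for all rats, the non-addicted ones included. The study describes self-administration through a jugular catheter in daily short sessions. The MA12 group was sampled after 12 h and the MA24 group after 24 h of abstinence, and the third group carries the label non-addicted; the sources used here give neither the criterion for that label nor the time from the last session to sampling. The study describes saline, MA, MA12 and MA24 groups and names no non-addicted group. It compares the abstinence groups with saline rats, and in additional analyses with the MA group and with each other. By the labels, no drug-free rat was analysed here. Whether the non-addicted rats took MA or saline cannot be told from these sources.

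Inward rectifiers pass potassium more easily into the cell than out of it and so hold the resting potential near the potassium equilibrium. Kir2 channels are open at rest and give striatal projection neurons their very negative resting potential. GIRK channels open when Gi/o-coupled receptors release G protein beta-gamma subunits, and GIRK2 is a main subunit through which dopamine D2 and GABA-B receptors silence midbrain dopamine neurons. GIRK1 needs a partner subunit to reach the cell surface. KATP channels couple the membrane potential to the energy state of the cell through a Kir6 pore and a sulfonylurea receptor subunit.

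Total counts ran from 17908962 to 23850284 per rat. The 12 striatal projection neuron markers summed to between 15828 and 21699 CPM (reads scaled to the library total), against 2.86 to 10.2 CPM for the 5 cortical glutamatergic markers found in the table. Of 10 markers of septal, pallidal or hypothalamic neurons, Sim1 was at 0 in all 12 rats and Otp between 0 and 3 counts, while the list as a whole summed to between 65.2 and 188 CPM. The rat numbers in the labels are of 2 kinds, with and without the letter N. All 4 non-addicted rats lacked the letter, all 4 MA24 rats had it, and MA12 held 2 of each (rats 21 and 31, and rats 4N and 7N). The labels do not say what the letter stands for. The kind of number and the group therefore cannot be told apart between non-addicted and MA24 rats.

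The RefSeq stretches of 250 bases just upstream of the start of Kcnj6 and Kcnj4 (build GRCr8, whereas the counts were made on rn6) are shown because Kcnj6 varied most between rats and Kcnj4 had the highest counts. Capitals mark a GC box (GGGCGG, searched on both strands). The Kcnj6 stretch is chr11:47778349-47778598 and the Kcnj4 stretch is chr7:112954548-112954797, both on the minus strand and printed 5′ to 3′ toward the gene.
Kcnj6: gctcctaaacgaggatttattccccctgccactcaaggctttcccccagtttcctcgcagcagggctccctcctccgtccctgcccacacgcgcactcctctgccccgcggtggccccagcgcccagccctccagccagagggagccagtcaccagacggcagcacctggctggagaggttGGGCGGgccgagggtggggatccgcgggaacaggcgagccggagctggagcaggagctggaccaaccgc
Kcnj4: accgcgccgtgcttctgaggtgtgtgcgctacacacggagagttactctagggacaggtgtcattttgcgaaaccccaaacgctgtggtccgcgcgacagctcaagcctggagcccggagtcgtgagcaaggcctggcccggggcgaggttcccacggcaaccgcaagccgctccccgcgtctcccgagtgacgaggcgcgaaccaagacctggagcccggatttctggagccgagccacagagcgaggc
A window was found for 5 of the 8 genes (Kcnj2, Kcnj4, Kcnj5, Kcnj6 and Kcnj9). Kcnj6 held 1 GC box, Kcnj2 held 1, Kcnj5 held 2, and Kcnj4 and Kcnj9 held 0, beside 30.5% of 33469 rat windows of the same length with at least 1. The Kcnj6 window was 69.2% G or C with 16 CpG pairs, and that of Kcnj4 65.6% with 26, against medians of 51.2% and 5 over all windows. The activity-dependent elements CRE (TGACGTCA) and AP-1 (TGACTCA) were in none of the 5 windows, and were in 1.59% and 4.05% of all windows, respectively. The E-box CACGTG (5.59% of all windows) and TATAAA (12.9%) were likewise in none of the 5.

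**Figure D1:**
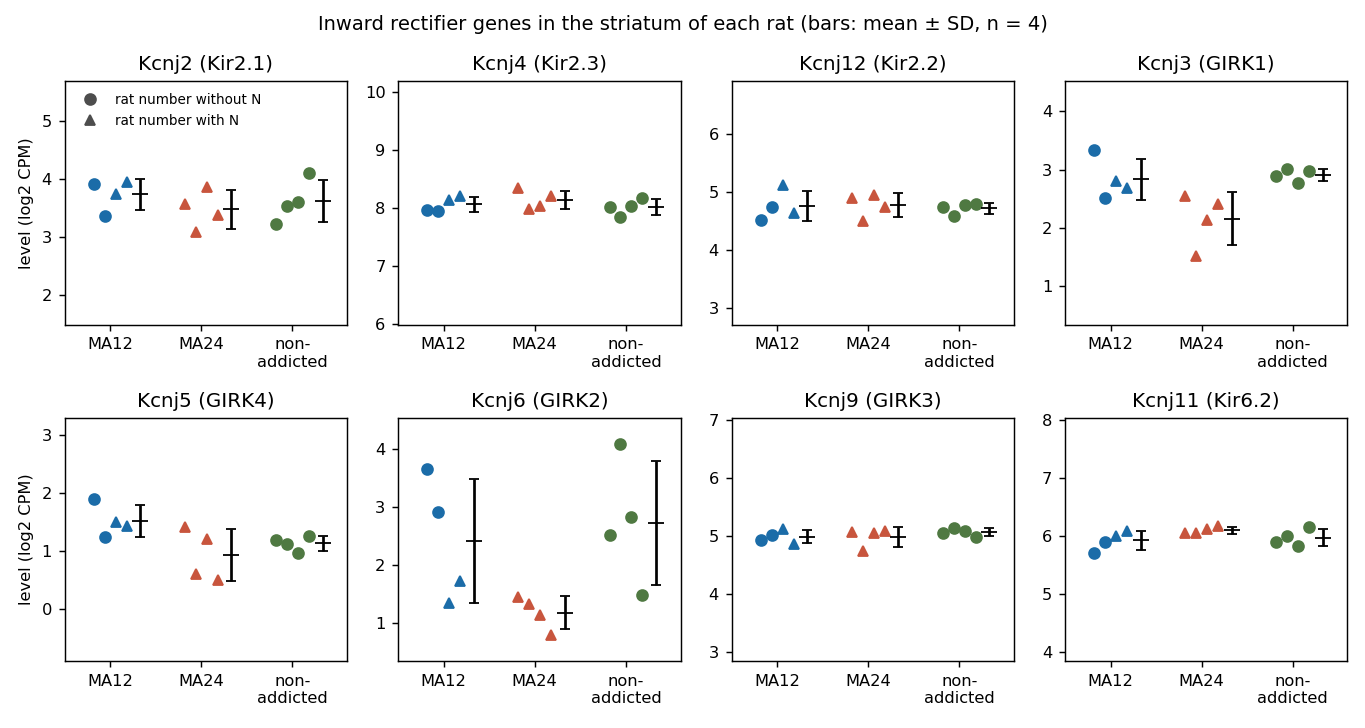
Level of each subunit gene (log2 CPM, vertical axis, 4.2 log2 units in every panel but centred on each gene) in each rat of the MA12, MA24 and non-addicted groups. Circles are rats numbered without N, triangles rats numbered with N, and bars the mean ± SD of 4 rats. Kcnj6 spread 10.3-fold over the 12 rats and Kcnj9 1.33-fold.

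The most variable subunit was Kcnj6. Its counts were 108, 343, 170 and 52 in non-addicted rats 9, 11, 12 and 13, 297, 179, 52 and 57 in MA12 rats 21, 31, 4N and 7N, and 61, 49, 41 and 31 in MA24 rats 9N, 14N, 15N and 16N. The MA24 rats were uniformly low, the other groups held both high and low rats, and rat 11 and rat 21 were the highest of their groups. In log2 CPM the levels were 2.73 ± 1.07 in non-addicted, 2.41 ± 1.07 in MA12 and 1.18 ± 0.28 in MA24 rats (mean ± SD, n = 4 each). The fitted log2FC (edgeR) was -1.54 with an SE of 0.39 for MA24 vs. MA12, which is 2.91-fold lower, and 1.86 with an SE of 0.39 for non-addicted vs. MA24, which is 3.63-fold higher. In the first comparison the groups overlapped, since MA12 rat 4N (1.34) lay below MA24 rat 9N (1.44). In the second they did not, but the lowest non-addicted rat, rat 13, stood at 1.49, next to rat 9N.

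The highest Kcnj6 levels were all in rats numbered without N, between 1.49 and 4.09 log2 CPM over 6 rats, and rats numbered with N ranged from 0.79 to 1.73. Within MA12, where all rats shared the abstinence time, rats 21 and 31 had 297 and 179 Kcnj6 counts and rats 4N and 7N had 52 and 57. When only rats numbered with N were compared, the MA24 vs. MA12 log2FC of Kcnj6 was -0.35, and with the kind of number as a covariate it was -0.36. The non-addicted vs. MA12 log2FC of Kcnj6 was 0.31 with an SE of 0.46 (interval -0.65 to 1.27, adjusted p = 0.841, edgeR), and it turned to -0.30 when only rats numbered without N were compared. Leaving out rat 21 brought the MA24 vs. MA12 value to -0.99, and leaving out rat 11 brought the non-addicted vs. MA24 value to 1.21 and the non-addicted vs. MA12 value to -0.33.

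**Figure D2:**
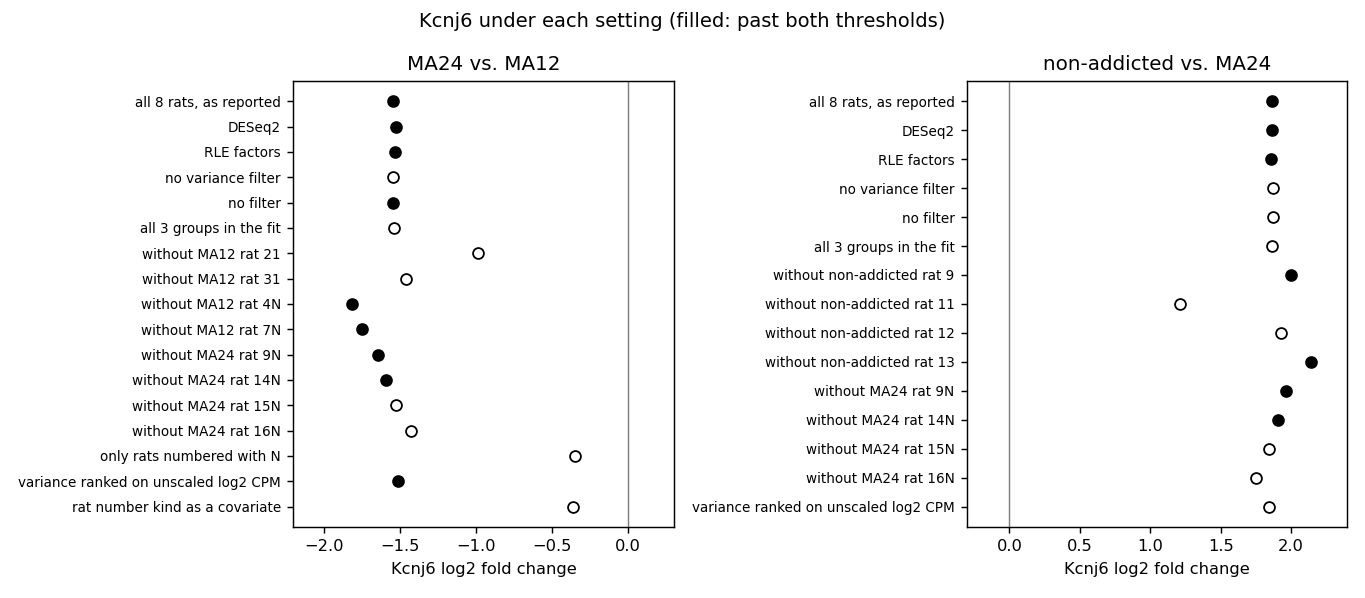
Fitted Kcnj6 log2 fold change (horizontal axis) under each way of fitting, 1 circle per setting, for MA24 vs. MA12 (left) and non-addicted vs. MA24 (right). Filled circles had an FC of 1.5 or more together with an edgeR or DESeq2 adjusted p under 0.05. The sign held in all settings, and the value for MA24 vs. MA12 moved from -1.54 to -0.35 when only rats numbered with N were used.

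Marker lists of other neurons were compared with Kcnj6 rat by rat. The septal, pallidal or hypothalamic list summed to between 65.2 and 83.1 CPM in MA24 rats, between 71.7 and 150 CPM in MA12 rats and between 76.3 and 188 CPM in non-addicted rats. Non-addicted rat 11 (188 CPM) and MA12 rat 21 (150 CPM) were highest on this list as on Kcnj6. Of the 7 list members tested in MA24 vs. MA12, 1 was called lower (Dgkg, a diacylglycerol kinase, log2FC -0.87, adjusted p = 0.0456, edgeR) and 0 higher, where 2.45% of all genes were called. DESeq2 called 0 of this list, with a lowest adjusted p of 0.0872. In non-addicted vs. MA24, edgeR called 1 of its 8 tested members higher and 0 lower, against 0.456% of all genes. DESeq2 again called 0. As a sum, the 12 projection neuron markers ran the other way. They came to 15828 and 16772 CPM in MA12 rats 21 and 31, and 20183 and 20386 CPM in rats 4N and 7N. Each MA24 rat had at least 19587 CPM. Gene by gene they were mixed: of 11 tested in MA24 vs. MA12, 5 had a positive and 6 a negative log2FC (edgeR). Their median was -0.07, against -0.02 over all genes, and both tools called 0. Thalamic markers summed to 33.6 to 40.4 CPM in MA24, 42.3 to 74.8 CPM in MA12 and 33.3 to 83.7 CPM in non-addicted rats. Of the 5 thalamic markers tested in MA24 vs. MA12, edgeR called 1 lower and 0 higher, beside 2.45% of all genes called. DESeq2 called 1 of them, Prkcd, beside 320 of 10754 genes over all, and the lowest DESeq2 adjusted p of the list was 0.000663. With group means removed, Kcnj6 had an r of 0.70 with the mean log2 CPM of the septal, pallidal or hypothalamic list (permutation p = 0.0633, adjusted p = 0.411, 12 rats), which was 0.29 without the 2 farthest rats, and a rho of 0.63 (permutation p = 0.0711, adjusted p = 0.426). With the thalamic list the r was 0.81 (permutation p = 0.0224, adjusted p = 0.359), or 0.67 without the 2 farthest rats, and the rho was 0.73 (permutation p = 0.0384). The cortical glutamatergic and cholinergic interneuron lists ran the other way, with r values of -0.68 (permutation p = 0.00934, adjusted p = 0.224) and -0.48 (permutation p = 0.0982, adjusted p = 0.453), which were -0.46 and -0.40 without the 2 farthest rats, and rho values of -0.70 (permutation p = 0.0201) and -0.48 (permutation p = 0.111). Only list genes averaging more than 4 counts entered the means. The cortical mean therefore rests on 2 genes at low levels (-0.80 to 1.41 log2 CPM), and the septal, pallidal or hypothalamic mean on 8. The midbrain dopamine list (3 genes in the mean) had an r of 0.54 (permutation p = 0.185, adjusted p = 0.486), or 0.02 without the 2 farthest rats. The ependymal and choroid plexus list, of cells other than neurons, had 0.61 (permutation p = 0.135, adjusted p = 0.478), or 0.75. The part of these cell populations in the Kcnj6 values was not tested. In tissue RNA, fewer cells of a type and less RNA per cell cannot be told apart.

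With each group's mean removed, Kcnj6 went down as the mean log2 CPM of the projection neuron markers went up, with a Pearson r of -0.91 (permutation p = 0.00594) and a Spearman rho of -0.84 (permutation p = 0.0188) over 12 rats. Kcnj4 went up with them, with an r of 0.86 (permutation p = 0.00258) and a rho of 0.83 (permutation p = 0.00176). Neither passed correction over the 96 relations of 8 genes with 12 lists (adjusted p = 0.204 for both r values). Without the 2 rats farthest from the median the r values were -0.89 and 0.89. Over the 28 pairs of subunits, Kcnj4 against Kcnj6 had an r of -0.69 (permutation p = 0.0181, adjusted p = 0.436) and a rho of -0.64 (permutation p = 0.0398, adjusted p = 0.446), and -0.81 without the 2 farthest rats. No pair passed correction.

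Within each kind of rat number, a split made after the values were seen, the same 3 relations are given as a description with no test, after the mean of each group and kind was removed. In the 6 rats numbered without N, Kcnj6 had an r of -0.95 and a rho of -0.77 with the projection neuron markers, Kcnj4 an r of 0.96 and a rho of 0.60, and Kcnj4 against Kcnj6 an r of -0.94 and a rho of -0.49. Without the 2 farthest rats these r values were -0.45, -0.50 and 0.61, so the relations rest on those rats. In the 6 rats numbered with N, the r values were -0.38, 0.79 and 0.16 and the rho values -0.09, 0.83 and 0.20, in the same order. The difference between the kinds was not tested.

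**Figure D3:**
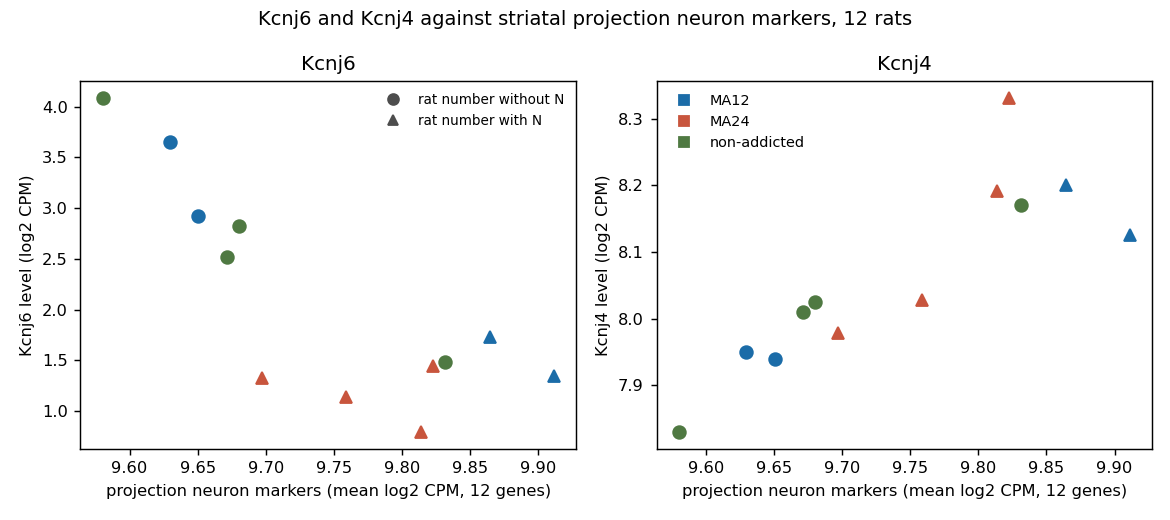
Kcnj6 (left) and Kcnj4 (right) levels in log2 CPM against the mean log2 CPM of 12 striatal projection neuron marker genes, 1 point per rat, coloured by group, with circles for rats numbered without N and triangles for rats numbered with N. Rat 11, the non-addicted rat with the lowest marker mean (9.58), had the highest Kcnj6 (4.09) and the lowest Kcnj4 (7.83).

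The second G protein-gated subunit that was lower in MA24 rats by value was Kcnj3 (GIRK1). Its counts were 140, 161, 164 and 149 in non-addicted rats, 238, 134, 146 and 112 in the MA12 group and 133, 56, 83 and 99 in the MA24 group. Every MA24 rat lay below every non-addicted rat in log2 CPM (at most 2.54 against at least 2.77), and MA12 overlapped with MA24, since rat 31 stood at 2.51. The log2FC was 0.72 with an SE of 0.22 for non-addicted vs. MA24 (interval 0.25 to 1.18, unadjusted p = 0.00426, adjusted p = 0.128, edgeR) and -0.68 with an SE of 0.25 for MA24 vs. MA12 (interval -1.19 to -0.16, unadjusted p = 0.0123, adjusted p = 0.105, edgeR). Neither passed the threshold after correction over all genes, and DESeq2 gave adjusted p = 0.0584 and 0.0689. Between non-addicted and MA12 rats the log2FC of Kcnj3 was 0.04 (interval -0.38 to 0.45). In contrast to Kcnj6, the N-numbered rats of MA12 (2.80 and 2.68 log2 CPM) lay between rat 31 (2.51) and rat 21 (3.34), and the MA24 vs. MA12 value with only N-numbered rats was -0.54 (adjusted p = 0.406, edgeR; range over all alternatives 0.0651 to 0.406).

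Kcnj5 (GIRK4), best known from the heart, was the least counted member. It had 42, 42, 45 and 44 counts in non-addicted rats, 86, 54, 58 and 46 in MA12 rats and 60, 29, 43 and 25 in those of MA24. The MA24 vs. MA12 log2FC was -0.56 with an SE of 0.32 (interval -1.23 to 0.10, adjusted p = 0.286, edgeR), and the groups overlapped in all 3 comparisons. The non-addicted rats were the closest together, at 1.13 ± 0.13 log2 CPM against 0.93 ± 0.45 in MA24 rats (SD, n = 4).

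Kcnj9 (GIRK3), a subunit that joins other GIRK subunits and steers their trafficking, was the steadiest of the 8. Its counts were 641, 717, 830 and 611 in non-addicted rats, 730, 776, 745 and 517 in the MA12 group and 778, 541, 649 and 642 in the MA24 group. Scaled to CPM the highest rat was 1.33-fold above the lowest. The log2FC was 0.00 for MA24 vs. MA12 (interval -0.23 to 0.23) and 0.07 for non-addicted vs. MA24 (interval -0.16 to 0.30). For non-addicted vs. MA12, Kcnj9 was among the 15% of genes removed for low variance, and a fit with those genes kept gave 0.07 (interval -0.11 to 0.25).

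Among the Kir2 genes, Kcnj4 (Kir2.3) had the highest counts of the set: 4944, 4608, 6350 and 5536 in non-addicted rats, 5876, 5873, 5938 and 5206 in the MA12 group and 7488, 5115, 5075 and 5532 in the MA24 group. All groups overlapped. The log2FC was 0.08 for MA24 vs. MA12 (interval -0.14 to 0.30), -0.05 in non-addicted vs. MA12 (interval -0.27 to 0.17) and -0.13 in non-addicted vs. MA24 (interval -0.35 to 0.09), so that a change of 1.5-fold lay outside each interval. Gene lengths in the build of the counts were not used here, and the order of the counts is not an order of expression per length.

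Kcnj12 (Kir2.2) had 513, 486, 665 and 530 counts in non-addicted rats, 545, 641, 741 and 443 in the MA12 group and 692, 460, 604 and 509 in the MA24 group. No group stood apart, and its log2FC was 0.01 (interval -0.28 to 0.30), -0.06 (interval -0.33 to 0.21) and -0.07 (interval -0.32 to 0.18) in the 3 comparisons, taken in the same order. Kcnj2 (Kir2.1) had 178, 233, 295 and 328 counts in non-addicted rats, 357, 243, 283 and 271 in the MA12 group and 276, 170, 282 and 196 in the MA24 group. It varied more within groups than the other Kir2 genes, with SDs of 0.36, 0.27 and 0.33 log2 units. Its log2FC was -0.25 with an SE of 0.18 for MA24 vs. MA12 (adjusted p = 0.399, edgeR), -0.11 in non-addicted vs. MA12 and 0.14 in non-addicted vs. MA24.

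Kcnj11 (Kir6.2) had 1144, 1305, 1383 and 1375 counts in non-addicted rats, 1242, 1430, 1365 and 1206 in the MA12 group and 1541, 1346, 1349 and 1367 in the MA24 group. The MA24 rats lay within 6.05 to 6.18 log2 CPM, inside or just above the range of the other groups. The log2FC was 0.17 with an SE of 0.10 for MA24 vs. MA12 (interval -0.05 to 0.38, adjusted p = 0.33, edgeR), 0.04 in non-addicted vs. MA12 and -0.12 in non-addicted vs. MA24.

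**Figure D4:**
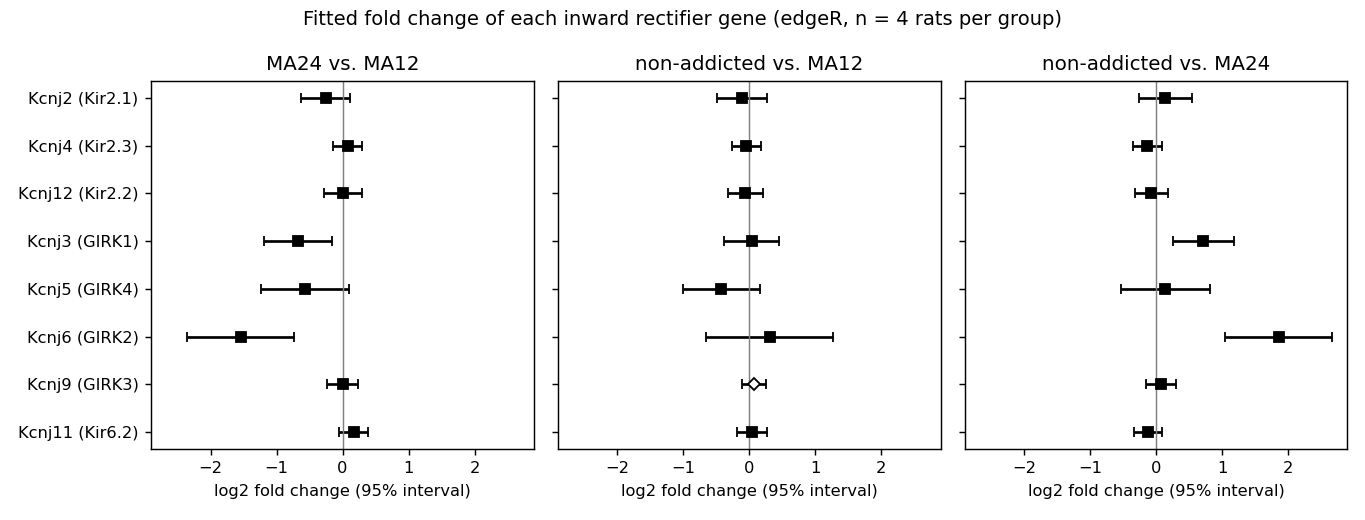
Fitted log2 fold change of each subunit gene with its 95% interval (bars) in the 3 comparisons, 4 rats per group. The open diamond is the Kcnj9 value from the fit without the variance filter. The intervals of Kcnj3 and Kcnj6 lie away from 0 in MA24 vs. MA12 and in non-addicted vs. MA24, and all 8 cover 0 in non-addicted vs. MA12.

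DEGs were genes with an FC of 1.5 or more and an adjusted p under 0.05 (edgeR). Of the members, 1 of 8 was a DEG for MA24 vs. MA12 (Kcnj6), where 2.45% of 10754 genes were. For non-addicted vs. MA24 it was also 1 of 8 (Kcnj6), where 0.456% of 10744 genes were. Both counts hold the gene that entered into the choice of the set, and nothing is read from them. For non-addicted vs. MA12, 0 of the 7 members tested were DEGs, where 0.251% of 10758 genes were. DESeq2 also called 0 there. The members that did not overlap between groups numbered 2 of 8 for non-addicted vs. MA24 (Kcnj3 and Kcnj6, against 10.0% of all genes), 0 of 8 for MA24 vs. MA12 (15.5%) and 0 of 7 for non-addicted vs. MA12 (7.11%). At an unadjusted p under 0.05 there were 2 of 8 members for MA24 vs. MA12 (Kcnj3 and Kcnj6, against 23.6% of all genes), 0 of 7 for non-addicted vs. MA12 (12.3%) and 2 of 8, again Kcnj3 and Kcnj6, in non-addicted vs. MA24 (17.5%). Each count of 2, also that of members that did not overlap, holds Kcnj6, and nothing is read from these counts. The median log2FC over the members was -0.13 in MA24 vs. MA12, -0.05 in non-addicted vs. MA12 and 0.11 in non-addicted vs. MA24, against -0.02, -0.01 and 0.00 over all genes tested. The comparisons share groups, so these values are not independent of each other.

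Over all 12 rats the SD of Kcnj6 was 1.07 log2 units, at percentile 98.6 of 12649 genes, whose median SD was 0.20. Kcnj3 came next with a 3.63-fold range (percentile 83.4), then Kcnj5 with 2.74-fold (77.3) and Kcnj2 with 2.04-fold (70.9). Kcnj12 with 1.54-fold (44.3), Kcnj4 with 1.42-fold (28.0), Kcnj11 with 1.38-fold (28.0) and Kcnj9 with 1.33-fold (17.4) were below the middle of all genes. The Kcnj6 spread includes the MA24 difference on which the set was selected, and is a description (SD within groups 0.89). Apart from Kcnj6, the GIRK genes still held both the most variable member, Kcnj3, and the least, Kcnj9.

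Of the 2 sulfonylurea receptors that complete KATP channels, Abcc9 was called in 2 comparisons and Abcc8 in 0. Of all genes, 2.45% were called in MA24 vs. MA12 and 0.251% in non-addicted vs. MA12. Abcc9 (SUR2) had 177, 235, 363 and 271 counts in non-addicted rats, 633, 795, 649 and 288 in the MA12 group and 328, 287, 368 and 330 in the MA24 group. Rats 21, 31 and 4N were the highest of all, and every non-addicted rat lay below every MA12 rat in log2 CPM. These 2 groups did not overlap in 7.11% of all genes. Abcc9 was lower in non-addicted than in MA12 rats (log2FC -1.10 with an SE of 0.19, adjusted p = 0.0157, edgeR) and fell by 0.73 on the log2 scale from MA12 to MA24 (SE 0.17, adjusted p = 0.0225, edgeR). Abcc9 is also on the mural cell marker list, whose 6 genes summed to between 87.6 and 140 CPM in non-addicted, 139 and 252 CPM in MA12 and 133 and 172 CPM in MA24 rats. The part of mural cells in the Abcc9 values was not tested. Abcc8 encodes SUR1, the partner typical of neurons.

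Of the other inward rectifiers, 4 of 7 passed the filter on low values and edgeR and DESeq2 called 0 in any comparison, with 2, 2 and 1 of the 4 at an unadjusted p under 0.05 (MA24 vs. MA12, then non-addicted against MA12 and MA24), beside 23.6%, 12.3% and 17.5% of all genes. The largest difference was that of Kcnj16 (Kir5.1, which pairs with the glial channel Kir4.1), with a log2FC of 0.83 and an SE of 0.41 for non-addicted vs. MA24 (adjusted p = 0.297, edgeR). It was also the largest for MA24 vs. MA12, at -0.38 with an SE of 0.45. Kcnj8 (Kir6.1), the KATP pore of vascular mural cells, had the largest value for non-addicted vs. MA12, with a log2FC of -0.69 and an SE of 0.25 (adjusted p = 0.254, edgeR).

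Upstream of the GIRK channels, 0 of 15 Gi/o-coupled receptors were called by edgeR in any comparison (14 of them tested in non-addicted vs. MA24), with 6 of 15, 3 of 15 and 6 of 14 at an unadjusted p under 0.05 in the same order, beside 23.6%, 12.3% and 17.5% of all genes. DESeq2 called 1 in MA24 vs. MA12 (Oprk1, the kappa opioid receptor, log2FC -0.64 and adjusted p = 0.0510 by edgeR) and 1 in non-addicted vs. MA24 (Htr1a). Over all genes, DESeq2 called 320 of 10754 and 126 of 10744 in these comparisons, respectively. Oprk1 is named after its values were seen. In MA24 vs. MA12, 4 had a positive and 11 a negative log2FC, with a median of -0.41 against -0.02 over all genes. The largest value in each comparison was that of Htr1a, the serotonin 1A receptor, with 16, 100, 32 and 5 counts in non-addicted rats, 31, 33, 2 and 2 in the MA12 group and 2, 2, 10 and 8 in the MA24 group. As for Kcnj6, rat 11 had the most Htr1a reads, and MA12 rats 21 and 31 stood above rats 4N and 7N. Its non-addicted vs. MA24 log2FC was 2.71 with an SE of 0.76 (adjusted p = 0.100, edgeR).

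Among 22 genes of G protein subunits and GIRK regulators, 17 were tested in MA24 vs. MA12, 18 in non-addicted vs. MA12 and 15 in non-addicted vs. MA24. Both tools called 0, with 6, 0 and 6 at an unadjusted p under 0.05, to be read beside the same shares. Gnai1, an inhibitory G protein alpha subunit, had the largest value in both comparisons with MA24: -0.38 with an SE of 0.11 for MA24 vs. MA12 (adjusted p = 0.0451, edgeR, under the FC of 1.5) and 0.39 with an SE of 0.11 for non-addicted vs. MA24 (adjusted p = 0.112, edgeR). For non-addicted vs. MA12 it was Gnb5, a beta subunit that pairs with RGS proteins, at -0.13 with an SE of 0.10. Of 14 genes for the scaffolds that hold Kir2 channels and for the supply of the lipid PIP2 that keeps them open, 12 were tested in MA24 vs. MA12 and 14 in the others, and both tools called 0. At an unadjusted p under 0.05 there were 7 of 12, 2 of 14 and 3 of 14, beside 23.6%, 12.3% and 17.5% of all genes. Lin7a, a scaffold protein, had the largest value for MA24 vs. MA12 (-0.77, SE 0.40) and also in non-addicted vs. MA12 (-0.51, SE 0.40). Cask, its binding partner, had the largest in non-addicted vs. MA24 (0.42, SE 0.13, adjusted p = 0.125, edgeR).

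The genes whose log2 CPM over the 12 rats was most like that of Kcnj6, among 10764 with a mean count of at least 50, were Peg3 (Pearson r 0.97), Vsnl1 (0.96), Cacna1g (0.95), Vwa5b1 (0.94) and Pnma3 (0.94). Cacna1g, a T-type calcium channel, had 317, 708, 514 and 231 counts in non-addicted rats, 610, 514, 274 and 220 in the MA12 group and 306, 290, 261 and 246 in the MA24 group. Rat 11 was again the highest, and MA12 rats 4N and 7N lay beside the MA24 rats. The nearest gene was Fyco1 for Kcnj2 (0.93), Clvs2 for Kcnj3 (0.93), Erf for Kcnj4 (0.88), Kcnn3 for Kcnj9 (0.87), Cabp7 for Kcnj11 (0.94) and Rmdn3 for Kcnj12 (0.95). These correlations are the highest of many, over libraries that share group and depth, and are given as a description.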

How the data were processed

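Poly-A libraries were prepared by the study from total RNA of 12 rat striata, 4 per group. The values used are the raw read counts per gene deposited by the authors, for 17337 genes. Per the labels and the methods of the study, reads were trimmed with cutadapt 1.18 and aligned to rn6 with STAR 2.7.0e. For counting, the study names featureCounts and the submitters' processing notes list featureCounts and HTSeq 0.12.4. Handling of strand and of multi-mapped reads is not given in the sources used here. All 12 columns of counts were used.

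Each pair of groups was fitted on its own with edgeR 4.0.16 (R 4.3.3): genes averaging more than 4 counts across the 8 rats were kept, those in the lowest 15% by variance (of TMM-scaled log2 CPM, prior count 2) were removed, library sizes and TMM factors were computed again, and the quasi-likelihood test was run. A DEG needed an FC of 1.5 or more and a p under 0.05 after Benjamini-Hochberg adjustment. Levels are log2 CPM, given for all genes. They are scaled by the library totals and TMM factors of genes averaging more than 4 counts over all rats. Intervals of log2FC are 95% intervals computed back from the log2FC and the F statistic of the fit, with rats as the unit. The fit pulls the dispersion of each gene toward that of other genes. For a gene as variable as Kcnj6, the intervals can be narrower than its group SDs would give. The members and gene lists were chosen with earlier results of these data known. Named genes were all 8 members, and from each pathway list the called genes and the 1 with the largest absolute log2FC. The likeness named 5 genes for Kcnj6 and 1 for each other member with a mean count of at least 50. Relations across rats used 100000 permutations within groups, and those to marker lists were added after seeing the data, as was the split by kind of rat number. Tested on simulated data for MA24 vs. MA12, edgeR recovered 180 of 200 genes changed 2-fold, with 23 false calls among 203. For non-addicted vs. MA12 and vs. MA24 it recovered 178 and 175, with 19 of 197 and 17 of 192 calls false. Each share of false calls was larger than the adjusted p limit of 0.05. Replicates of a group differed by more than sampling noise (chi-square per degree of freedom 9.72 to 28.0), so none was merged. Alternatives were DESeq2 1.42.0, RLE factors, no variance filter, no filter, a fit of all 3 groups, leaving out each rat, and only rats of 1 kind of number. Variance ranked on unscaled log2 CPM and the kind of number as a covariate were added after seeing the data. Figures were drawn with matplotlib 3.10.9.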

Additional observations from a re-analysis of the deposited data

Results flagged for a closer look

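The level of Kcnj9 (GIRK3) in MA24 rat 14N (541 counts, 4.74 log2 CPM) lay far below those of the other MA24 rats, which were between 5.06 and 5.09 log2 CPM. Its gap to the nearest rat was 0.932 of the range of the group. Among 24 groups of 4 rats examined (8 genes in 3 groups) it was the only one past the 95% limit for such a gap, and chance gives about 1 in 20, or 1.2 in 24. Rat 14N was also the lowest MA24 rat for Kcnj2, Kcnj3, Kcnj4 and Kcnj12 in log2 CPM.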

How the results depend on the processing

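The count of members called for MA24 vs. MA12, 1 as reported, was 0 without the variance filter, 0 with all 3 groups in the fit, 0 with only rats numbered with N and 0 with the kind of number as a covariate. For non-addicted vs. MA24, 1 as reported, it was 0 without the variance filter, 0 with no filter, 0 with all 3 groups in the fit and 0 with variance ranked on unscaled log2 CPM. Leaving out single rats gave counts of 0 to 1 in both, with 0 without MA12 rat 21 or 31, non-addicted rat 11 or 12, or MA24 rat 15N or 16N. The gene was Kcnj6, whose log2FC kept its sign in these comparisons (-1.81 to -0.35 and 1.21 to 2.14). For non-addicted vs. MA12 the count was 0 in all 16 alternatives. No paired analysis was possible because the groups share no rat numbers. With only rats of 1 kind of number, values near 0 reversed: for MA24 vs. MA12, Kcnj4 -0.014, Kcnj9 -0.0016 and Kcnj12 -0.11 (with the covariate -0.030, -0.018 and -0.12), and for non-addicted vs. MA12, Kcnj3 -0.060, Kcnj4 0.083, Kcnj6 -0.30 and Kcnj12 0.10 (with the covariate -0.073, 0.070, -0.32 and 0.088). Kcnj9 was -0.00079 for MA24 vs. MA12 with no filter. Leaving out single rats moved values across 0 as follows: for MA24 vs. MA12, Kcnj9 -0.032 to 0.049 and Kcnj12 -0.059 to 0.15; for non-addicted vs. MA12, Kcnj2 -0.28 to 0.013, Kcnj3 -0.070 to 0.24, Kcnj4 -0.089 to 0.024, Kcnj6 -0.33 to 0.86, Kcnj11 -0.026 to 0.12 and Kcnj12 -0.13 to 0.094; and for non-addicted vs. MA24, Kcnj2 -0.046 to 0.28. The causes were not tested. Over all genes, the DEGs for non-addicted vs. MA24 numbered 49 as reported, 126 by DESeq2, 10 with no filter, 2 with all 3 groups in the fit and 0 without the variance filter; those for MA24 vs. MA12 numbered 264, and 116 with only rats numbered with N and 47 with the covariate. Leaving out single rats gave 129 (without MA24 rat 14N) to 436 (without MA24 rat 9N) DEGs for MA24 vs. MA12, 8 (without non-addicted rat 12) to 93 (without MA12 rat 7N) for non-addicted vs. MA12 and 0 (without non-addicted rat 12) to 187 (without non-addicted rat 13) for non-addicted vs. MA24, so the shares of all genes called move with single rats. Counts of under 100 (Kcnj5 in all 12 libraries) limit precision. The same holds for Kcnj6 in every MA24 rat (31 to 61 counts), in MA12 rats 4N and 7N and in non-addicted rat 13. It also holds for Kcnj3 in MA24 rats 14N, 15N and 16N (56, 83 and 99 counts).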
